A study of Drosophila melanogaster with 384 samples.

Results

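Among the males of 96 inbred fly lines, 69 of 17097 FlyBase genes were close to absent in at least 10 lines and clearly detected in at least 10 others. These genes were chosen by their male levels. Counts of each male library were scaled to a library total of 1000000 (CPM), both replicates of a line were averaged, and a gene was kept if it was under 0.5 CPM in at least 10 lines and over 5 CPM in at least 10 lines. A line under 0.5 CPM is called off for a gene, a line over 5 CPM is called on, and any other line lies between. The thresholds were met by 129 genes, and 60 of them were left out by name: 49 with symbols starting lncRNA:, 7 with asRNA:, 3 with snoRNA:, and mthl8. The male levels below are therefore a description. Only levels in female libraries, which the choice did not use, were tested. The comparison of high and low lines still used the male levels to order the lines.

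The flies were Drosophila melanogaster males and females of inbred lines founded by wild-caught flies, the DGRP (Drosophila Genetic Reference Panel), and every group was reared on medium with 10% (v/v) ethanol. Each library came from a pool of mated whole flies, 30 males or 25 females aged 3 to 5 days, with 2 replicates per line and sex and 384 libraries in all. Each line is 1 inbred genotype, and flies on medium without ethanol were not analysed here. Nothing in the labels says that replicates came from separate cultures, so p-values over libraries measure the spread between these samples.

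Inbred lines of a natural population carry different alleles of the same gene, and a gene can be expressed in some of them and silent in others. Digestive enzymes, immune effectors and detoxification enzymes form large families in which single copies can be lost. In whole flies, fewer cells of a type and less RNA per cell cannot be told apart.

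Male libraries held between 6481833 and 17401404 counts, so that 0.5 CPM is between 3.24 and 8.70 counts. Reads that match several places (25.8% of those tallied) were not counted, and the levels of members with near-identical copies, which include snRNA:U2:34ABa, deltaTry, Cyp12d1-d and LysC, are uncertain. Of the 69 members, 42 overlap no other annotated gene, 14 overlap a gene on the same strand and 18 a gene on the other strand. Accessory gland transcripts summed to between 3403 and 11528 CPM in male libraries and to at most 245 CPM in female libraries, and no library passed into the range of the other sex. Libraries were sequenced on 7 flow cells. Males of 76 lines and females of 45 lines had replicate 1 on the one called A here and replicate 2 on B. In 18 lines, 8 male or 12 female libraries held over 1% of the other sex's median for yolk protein or accessory gland transcripts. Without these lines, and with the minimum of 10 lines kept, 53 members met the rule and 16 did not: Jon44E, yl, deltaTry, Sr-CIV, ODA-Dnal1, CG5770, CG12009, Cpr66Cb, CG18179, CG12256, CG9988, CG31091, CG33337, CG33669, Mtkl and CG43393.

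Over 69 members and 96 lines, 2031 values were on, 1764 were off and 2829 lay between. The median member was on in 23 lines and off in 21. In 5 members at most 5 lines lay between the thresholds, whereas in 30 members at least 48 lines did. The first kind had 2 separate levels among lines, and the second kind had many lines spread between the thresholds. Some of the second kind still had a separate off level. CG45490 was off in 21 lines, at 0 to 0.0539 CPM, and its 54 lines between started at 0.61 CPM. CG42831 was off in 14 lines, at 0 to 0.159 CPM, and its 65 lines between started at 0.733 CPM. A line had between 9 members on (DGRP_355) and 32 (DGRP_83), with a median of 21. Members off numbered between 10 (DGRP_129) and 30 (DGRP_385), with a median of 19. No line thus had most members on, and none had most members off.

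**Figure D1:**
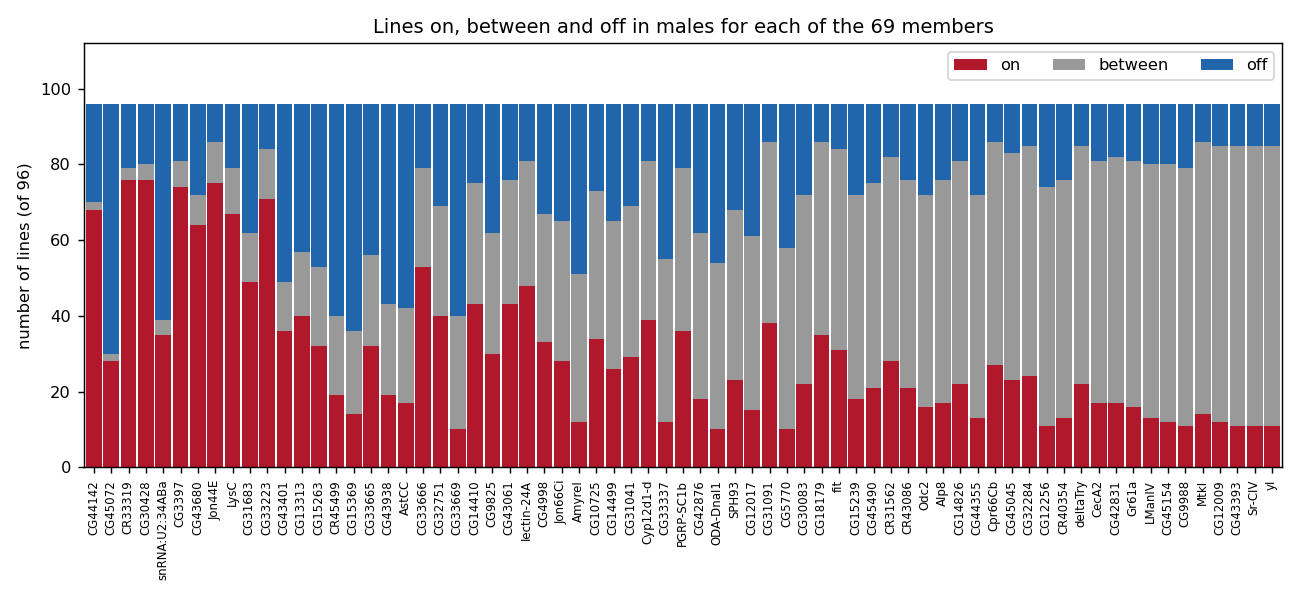
Number of the 96 lines (vertical axis) that were on (over 5 CPM, red), between (grey) or off (under 0.5 CPM, blue) in males, for each of the 69 members, in order of the number of lines between. CG44142 had 2 lines between, and yl had 74.

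CG44142 (FBgn0264991, on 3R) and CG45072 (FBgn0266442, also on 3R) had the fewest lines between, 2 each. CG44142 was on in 68 lines, at 8.30 to 284 CPM with a median of 36.2, and off in 26 lines, at 0 to 0.24 CPM with a median of 0.0977. Its lowest on line, DGRP_324, had 0.111 CPM in replicate 1 and 16.5 CPM in replicate 2. Of its 2 lines between, DGRP_399 had 5.36 CPM in replicate 1 and 0 CPM in replicate 2. DGRP_324 and DGRP_399 are among the 18 lines with markers of the other sex. CG45072 was on in 28 lines, at 5.21 to 14.9 CPM with a median of 7.57, and off in 66 lines, at 0 to 0.314 CPM. Both genes are known only by number.

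The pseudogene CR33319 (FBgn0053319, on 2L) was on in 76 lines, at 24.6 to 89.5 CPM with a median of 43.0, and off in 17 lines, at 0.0448 to 0.376 CPM. CG30428 (FBgn0050428, on 2R) was also on in 76 lines, at 6.64 to 26.7 CPM with a median of 20.6, and off in 16 lines, at 0 to 0.441 CPM. The gap between its on and off lines held 4 lines.

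The widest range belonged to snRNA:U2:34ABa (FBgn0004191, on 2L), a copy of the U2 small nuclear RNA, which base-pairs with the branch site of introns in the spliceosome. It was on in 35 lines, at 17.3 to 1386 CPM with a median of 54.3, and off in 57 lines, at 0 to 0.498 CPM with a median of 0.226. DGRP_801 held its highest value, and only 4 lines lay between. CG3397 (FBgn0037975, on 3R) was on in 74 lines and off in 15, with medians of 25.5 CPM and 0.0505 CPM. CG43680 (FBgn0263763, on 3L) was on in 64 lines and off in 24, with medians of 21.1 CPM and 0.112 CPM.

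**Figure D2:**
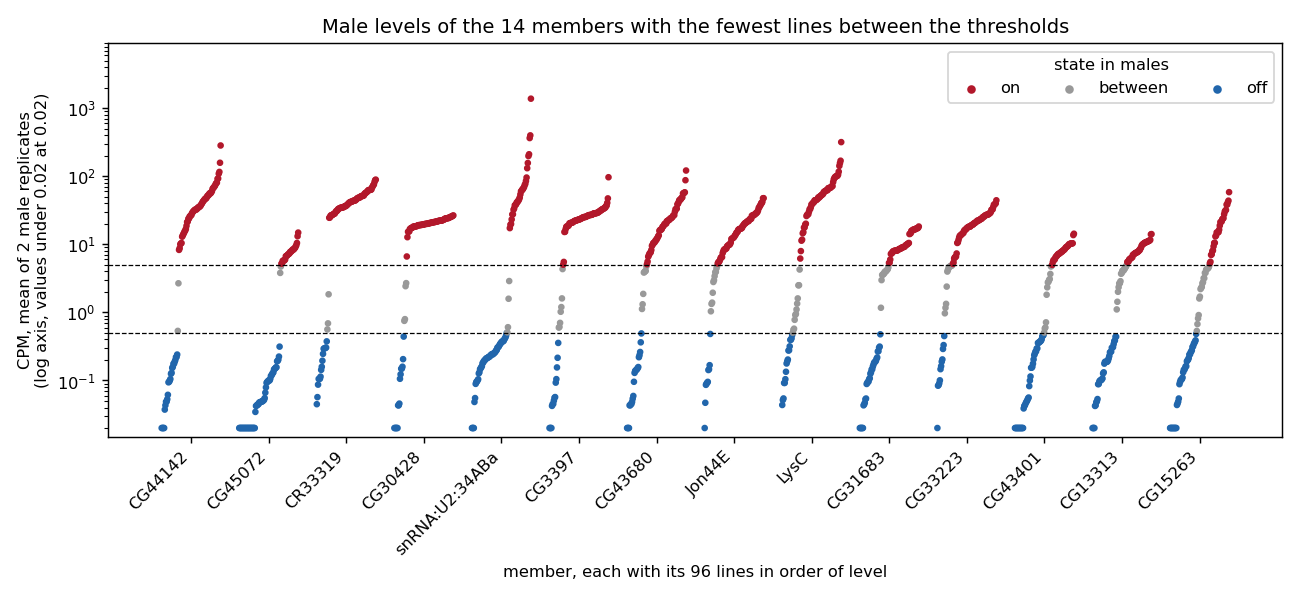
Male CPM (mean of 2 replicates, log axis, values under 0.02 drawn at 0.02) of the 14 members with the fewest lines between the thresholds of 0.5 and 5 CPM (dashed lines), 1 point per line in order of level. Red points are on, grey between and blue off. The on lines of CR33319 start at 24.6 CPM, far above its highest off line at 0.376 CPM, while CG15263 runs through the gap with 21 lines between.

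Ranked by the number of lines in the rarer state, CG13313 came first. CG13313 (FBgn0035941, on 3L) was on in 40 lines, at 5.51 to 14.2 CPM, and off in 39, at 0 to 0.44 CPM. CG43401 was on in 36 lines and off in 47, CG31683 (FBgn0051683) in 49 and 34, and CG15263 (FBgn0028853) in 32 and 43. CG33665 was on in 32 lines and off in 40, CG9825 in 30 and 34, and CG4998 in 33 and 29.

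How far the replicates of a line shared a state differed between members. Both replicates were over 5 CPM in 1665 of the 2031 on values, and both were under 0.5 CPM in 1477 of the 1764 off values. In the 76 lines with males on flow cells A and B, these counts were 1300 of 1582 and 1178 of 1410. In CG30428 both replicates were on in all 76 on lines, against 15 of 31 for fit, 7 of 17 for CecA2, 4 of 14 for Mtkl and 1 of 11 for yl. A pair with 1 replicate over 5 CPM and the other under 0.5 CPM occurred 17 times, in 12 members and 14 lines, and 57 members had none. SPH93, a serine protease homolog, had 0.408 CPM in replicate 1 and 49.6 CPM in replicate 2 of DGRP_822. snRNA:U2:34ABa had 34.7 CPM and 0 CPM in the replicates of DGRP_208, its lowest on line. Since the rule averaged both replicates, these counts are a description.

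Females were asked whether the lines differ in them too. Of the 69 members, 49 had a mean of at least 5 counts over female libraries and were tested, and 20 were not. The line effect passed edgeR's quasi-likelihood test in 47 members, with 71.7% of all 14760 features passing it. CG12009 and CG12017 did not pass (edgeR adjusted p = 0.0643 and 0.0617). The largest F values belonged to CG31683 (50.4), CG44142 (46.1), CG43680 (44.4), CG3397 (43.9) and CG32751 (36.5), with edgeR adjusted p between 3.4e-49 and 3.7e-52.

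A second comparison asked whether females follow the males of their line. For each gene, females of the 10 lines highest in males were compared with females of the 10 lines lowest in males, by an exact permutation test over lines. Females of the high lines were higher for 42 of the 49 members tested, with adjusted p between 0.000124 and 0.0403. The other 7 did not pass, and 0 were lower, with 1 (CG33223) lower at an unadjusted p under 0.05. Over all features tested, 49.3% were higher and 0.115% lower. Without the filter on counts, 44 of all 69 members were higher, against 18.9% of 39026 features. Females of all 10 high lines lay above females of all 10 low lines in 36 of the 49 members, and in 8.76% of all features. The median difference over the 49 members was 4.24 on the log2 scale, and 0.37 over all features. The rule gave every member at least 10 male lines over 5 CPM and at least 10 under 0.5 CPM. Other features were not chosen for such a gap in males. The shares and differences over all features are therefore not a like-for-like background for the members. The filter on the female mean kept out members that were low in most females, so the counts of the 49 do not speak for the other 20. Those 20 were tested only in the comparison without the filter.

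The largest female difference was that of snRNA:U2:34ABa. Females had a log2 CPM of 8.32 ± 1.31 in the 10 lines highest for snRNA:U2:34ABa and of -0.75 ± 0.51 in the 10 lowest (SD, n = 10 lines each), a difference of 9.07. LysC followed with 7.21 ± 0.66 and -1.33 ± 0.39, and CG44142 with 6.60 ± 0.82 and -1.88 ± 0.48. For each of these 3 the exact permutation p was 1.08e-05, the smallest that 10 against 10 lines can give, with an adjusted p of 0.000124. The prior count of 2 raises levels near 0, so the differences on this scale understate those of genes with no counts in the low lines. The levels of snRNA:U2:34ABa and LysC are uncertain in both sexes, since reads that match several places were not counted. Whether lines differ in how many of their reads match only 1 place was not tested.

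**Figure D3:**
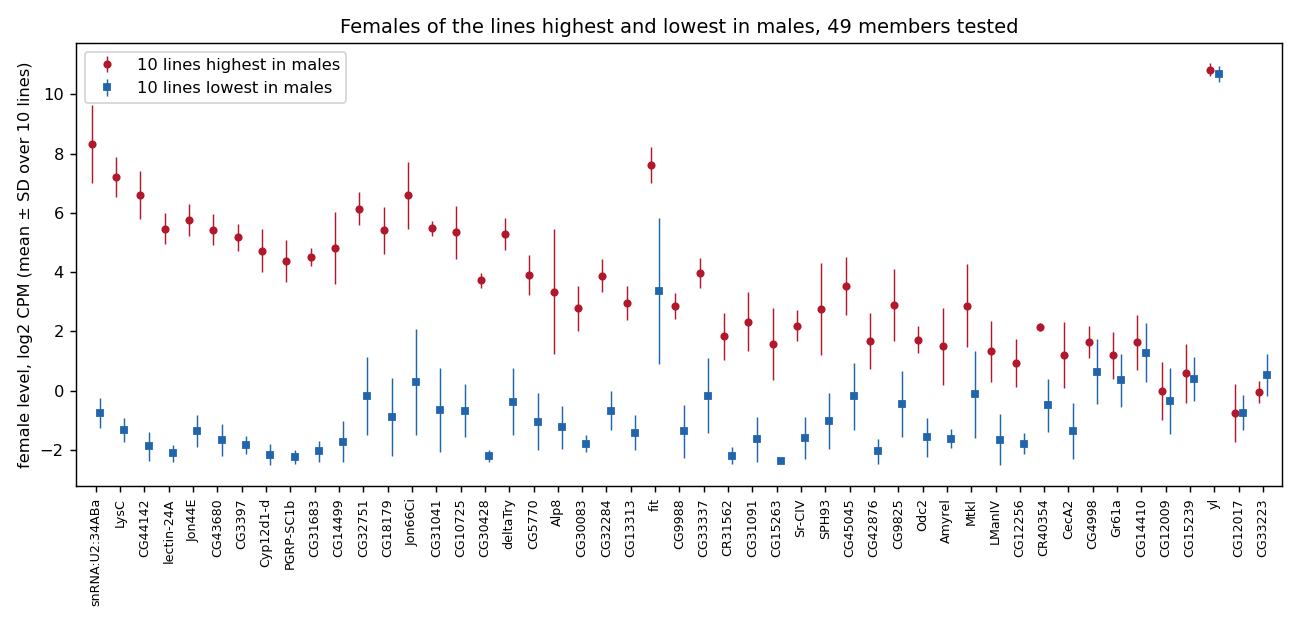
Female log2 CPM (mean ± SD over 10 lines) of the 49 members tested, in the 10 lines with the highest male level (red circles, left) and the 10 with the lowest (blue squares, right), in order of the difference. The difference is 9.07 for snRNA:U2:34ABa at the left, and -0.58 for CG33223 at the right.

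By state, females of on lines were themselves on in 1044 of 2031 values, between in 475 and off in 512. Females of off lines were on in 35 of 1764 values, between in 425 and off in 1304. Of these 35 values, 11 were of yl, 9 of fit and 6 of Jon66Ci. For CG44142, females were on in 67 of the 68 on lines and off in 24 of the 26 off lines. For CG30428, females were on in all 76 on lines, at 5.75 to 29.3 CPM, and off in all 16 off lines, at 0 to 0.218 CPM. The 2 sexes thus gave CG30428 the same state in 92 lines. CG30428 overlaps 2 annotated genes on its own strand and 3 on the other, and what these add to its counts was not tested. For CG13313, females were on in 27 of 40 on lines and off in 35 of 39 off lines. The same rule applied to female levels selected 97 genes, and 25 were on both lists, which is 36.2% of the male list and 25.8% of the female list. Without the 18 lines that hold markers of the other sex, the rule selected 55 genes in females and 16 on both lists, and the female list held 140 genes without replicate 2.

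Of the digestive enzymes, Jon44E and Jon66Ci are chymotrypsin-like proteases of the midgut, deltaTry is a trypsin, and Amyrel is a relative of amylase. Jon44E (FBgn0001285, on 2R) was on in 75 male lines, at 5.26 to 47.8 CPM, and off in 10, at 0 to 0.482 CPM. Its females had 8.04 to 85.1 CPM in the on lines and 0.0407 to 0.682 CPM in the off lines, so the ranges did not overlap. The midgut marker sum had medians of 1413 CPM in males of its on lines and 1570 CPM in its off lines. The difference in females between the high and low lines was 7.12 on the log2 scale (exact permutation, adjusted p = 0.000124).

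Jon66Ci was on in 28 male lines, at 5.22 to 119 CPM with a median of 13.1, and off in 31, at 0 to 0.453 CPM. In females its on lines had 6.33 to 299 CPM and its off lines 0.0865 to 26.5 CPM, which overlap, and 6 off lines had females that were on. deltaTry was on in 22 lines and off in 11, with male medians of 10.5 CPM and 0.247 CPM and female medians of 23.7 CPM and 0.761 CPM. For deltaTry the midgut marker sum had medians of 1625 CPM in the on lines, with a range of 751 to 2270, and 1101 CPM in the off lines, with a range of 911 to 2056. What part this has in its levels was not tested. Amyrel was on in 12 lines, at 5.21 to 32.6 CPM, off in 45 and between in 39. Its females differed by 3.11 on the log2 scale between high and low lines.

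Alp8, an alkaline phosphatase, was on in 17 lines, at 5.03 to 60.3 CPM, and off in 20, at 0.155 to 0.469 CPM. Females of its on lines had a median of 9.84 CPM and those of its off lines 0.297 CPM. LManIV, a lysosomal alpha-mannosidase, was on in 13 lines and off in 16, and females differed by 2.99 on the log2 scale between its high and low lines. Odc2 encodes an ornithine decarboxylase, the first enzyme of polyamine synthesis, and its on lines stayed low, at 5.43 to 9.76 CPM in 16 lines. Its females had 1.72 to 5.64 CPM in the on lines and at most 1 CPM in the 24 off lines. Odc2 thus had separate female ranges by male state although only 1 on line had females over 5 CPM.

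LysC (FBgn0004426, on 3L) is annotated as a pseudogene and lies in a cluster of lysozymes, enzymes that cleave bacterial cell walls. LysC was on in 67 male lines, at 6.19 to 318 CPM with a median of 51.6, and off in 17, at 0.0436 to 0.466 CPM. Its females had 9.31 to 268 CPM in the on lines, with a median of 98.0, and 0.0477 to 1.55 CPM in the off lines. The female ranges did not overlap.

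The C-type lectin lectin-24A (FBgn0040104, on 2L) binds sugars. It was on in 48 lines, at 5.18 to 54.7 CPM, and off in 15, at 0 to 0.438 CPM, and females had medians of 14.6 CPM in its on lines and 0.0541 CPM in its off lines. PGRP-SC1b (FBgn0033327, on 2R), a secreted amidase that cleaves peptidoglycan, was on in 36 lines, at 5.03 to 28.8 CPM, and off in 17, with a median of 0 CPM. Females of its on lines had 2.94 to 67.4 CPM and females of its off lines 0 to 2.08 CPM. The difference in females was 7.58 for lectin-24A and 6.63 for PGRP-SC1b on the log2 scale. SPH93 was on in 23 lines, at 5.00 to 108 CPM, and off in 28, and its females had medians of 12.5 CPM and 0.468 CPM in these lines.

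CecA2, a cecropin, and Mtkl, related to metchnikowin, are antimicrobial peptides of a kind that infection induces, and Sr-CIV is a scavenger receptor. CecA2 was on in 17 lines, at 5.05 to 16.6 CPM, and off in 15. Mtkl was on in 14 lines, at 5.11 to 11.4 CPM, and off in 10. Sr-CIV was on in 11 lines, at 5.08 to 9.01 CPM, and off in 11. Most lines lay between for all 3, and females differed by 2.56, 3.00 and 3.80 on the log2 scale between high and low lines (exact permutation, adjusted p = 0.000791, 0.00102 and 0.000124). The sum of 4 hemocyte markers had medians of 312 CPM in the on lines of Mtkl, with a range of 82.5 to 717, and 137 CPM in its off lines, with a range of 83.7 to 216. The part of this in the level of Mtkl was not tested. The same sum had medians of 292 CPM in on lines and 245 CPM in off lines of CecA2, and of 293 CPM in on lines and 354 CPM in off lines of Sr-CIV.

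Cyp12d1-d (FBgn0053503, on 2R) is a mitochondrial cytochrome P450 with a near-identical neighbour copy, of a family known for metabolizing toxins. It was on in 39 male lines, at 5.02 to 156 CPM with a median of 15.6, and off in 15, at 0 to 0.496 CPM with a median of 0. The highest value was in DGRP_177, which also had the highest value of Jon44E. Females had 2.23 to 59.1 CPM in its on lines and 0 to 0.557 CPM in its off lines, and the difference between high and low lines was 6.89 on the log2 scale.

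Among members known only by number, CG32751 (FBgn0052751, on X) was higher in females than in males. Its males were on in 40 lines, with a median of 9.17 CPM, and off in 27, with a median of 0.105 CPM. Its females had 16.2 to 127 CPM in the on lines and 0.0542 to 5.19 CPM in the off lines. CG31683 had 5.35 to 18.3 CPM in 49 on lines of males and 0 to 0.477 CPM in 34 off lines. Its females had 4.34 to 33.4 CPM and 0 to 0.688 CPM in these lines. The female mean was above the male mean in 26 of the 69 members.

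**Figure D4:**
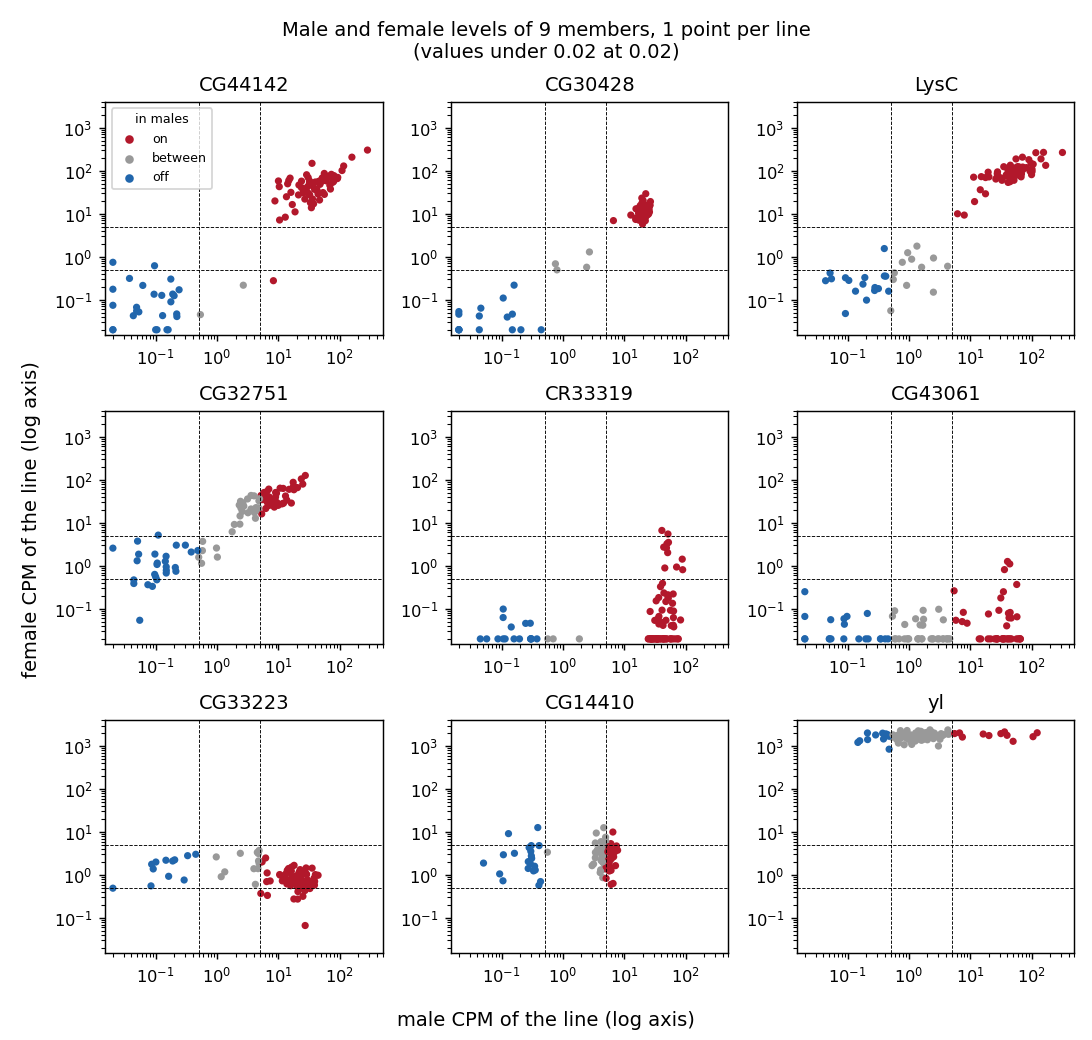
Male CPM (horizontal) against female CPM (vertical) of 9 members, 1 point per line, both on log axes with values under 0.02 drawn at 0.02, coloured by the state in males, with dashed lines at 0.5 and 5 CPM. Females of CG44142, CG30428, LysC and CG32751 are high in the on lines, females of CR33319 and CG43061 stay near 0 in most lines, and females of CG33223, CG14410 and yl overlap between on and off lines.

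Some members stayed low in females whatever the male state. Of the 69 members, 22 were never over 5 CPM in females, 13 stayed under 1 CPM in females of every line, and 8 were off in females of every line. The 13 were AstCC, CG14826, CG33665, CG33666, CG33669, CG42831, CG43401, CG43938, CG44355, CG45072, CG45154, CG45490 and CR45499. Of these AstCC encodes the neuropeptide allatostatin double C, and CG33665, CG33666 and CG33669 are numbered closely and lie near each other on X. AstCC was on in 17 male lines, at 5.25 to 10.7 CPM, and off in 54, at 0 to 0.492 CPM, while its females had 0 to 0.621 CPM over all lines.

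CG43061 (FBgn0262363, on 3R) had the highest median in on lines of the 22 members never over 5 CPM in females. It was on in 43 male lines, at 5.44 to 65.6 CPM with a median of 35.5, and off in 20, at 0 to 0.455 CPM. Its females had 0 to 1.27 CPM in the on lines, with a median of 0. In 7 on lines whose female library held over 1% of the male accessory gland sum, females had a median of 0.369 CPM and a highest value of 1.27 CPM, and in the other 36 on lines the median was 0 and the highest value 0.263 CPM. CR33319 was over 5 CPM in females of 2 lines, with 0 to 6.67 CPM in females of its 76 on lines. Of these, 9 lines with such a female library had a median of 0.328 CPM, and the other 67 lines had a median of 0 and held the highest value. The median sum of testis markers in males was 3690 CPM in on lines and 3336 CPM in off lines of CG43061, and 3658 and 3548 CPM in those of CR33319.

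ODA-Dnal1, whose name gives it as a light chain of the outer dynein arm that drives sperm tails and cilia, was on in 10 male lines, at 5.12 to 5.97 CPM, and off in 42, at 0.102 to 0.497 CPM. Its females had 0 to 1.37 CPM. The cuticle protein Cpr66Cb was on in 27 lines, at 5.02 to 11.6 CPM, and off in 10, and its females had medians of 0.225 CPM in the on lines and 0.55 CPM in the off lines. Neither had enough female counts for the filtered tests in females.

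The 7 members tested in females that did not pass the comparison of high and low lines were CG33223, CG12017, yl, CG15239, CG12009, CG14410 and Gr61a. CG33223 (FBgn0053223, on X) was on in 71 male lines, at 5.17 to 44.5 CPM with a median of 20.6, and off in 12, at 0 to 0.449 CPM. Its females had 0.0667 to 2.49 CPM in the on lines, with a median of 0.761, and 0.493 to 3.03 CPM in the off lines, with a median of 1.89. The female difference was -0.58 on the log2 scale, from -0.06 ± 0.36 in the 10 high lines and 0.52 ± 0.72 in the 10 low lines (exact permutation, adjusted p = 0.0704). It passed with the 20 highest and 20 lowest lines (-0.99, permutation, adjusted p = 0.000384) and in the lines outside flow cells A and B (-1.09, exact permutation, adjusted p = 0.0359). It overlaps 5 annotated genes on the other strand and 1 on its own, and what these add to its counts was not tested.

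CG14410 (FBgn0030583, on X) had a narrow on level in males, 5.02 to 7.77 CPM in 43 lines, and was off in 21, at 0.0505 to 0.43 CPM. Females ranged from 0.604 to 9.98 CPM in the on lines and from 0.574 to 12.7 CPM in the off lines. Lines differed in females (F = 8.53, edgeR adjusted p = 4.24e-22), but the difference between high and low male lines was 0.35 (exact permutation, adjusted p = 0.511). Females of this gene thus varied among lines without a detected tie to the male state.

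The gustatory receptor Gr61a, which responds to sugars, was on in 16 lines, at 5.33 to 13.3 CPM, and off in 15, at 0.129 to 0.473 CPM. Females had medians of 3.02 CPM in the on lines and 1.32 CPM in the off lines, and the difference was 0.85 (exact permutation, adjusted p = 0.0726). It passed in 4 alternatives, among them the 20 highest and 20 lowest lines (0.89, permutation, adjusted p = 0.00113). CG15239 and CG12009 differed by 0.20 and 0.34, and CG12017 by -0.01. CG4998 passed narrowly, by 0.99 (exact permutation, adjusted p = 0.0403), and did not without the 18 lines that hold markers of the other sex (0.93, exact permutation, adjusted p = 0.0724) or in the lines of flow cells A and B (0.71, exact permutation, adjusted p = 0.224).

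The vitellogenin receptor yl (FBgn0004649, on X), by which the oocyte takes up yolk, was at 845 to 2380 CPM in females of every line. In males it was on in 11 lines, at 5.55 to 123 CPM with a median of 31.5, and off in 11, at 0.147 to 0.474 CPM. The female difference between its high and low lines was 0.15 on the log2 scale (exact permutation, adjusted p = 0.264). Of its 11 on lines, 9 were among the 18 lines with markers of the other sex. Some of the 18 were flagged only by a female library, such as DGRP_730, with 8.60 CPM of yolk protein transcripts in males. In these 18 lines yl had 0.286 to 123 CPM, with a median of 4.07, and in the other 78 it had 0.147 to 7.43 CPM, with a median of 1.58. The 8 lines with yl over 10 CPM had between 148 and 1887 CPM of the yolk protein transcripts Yp1, Yp2 and Yp3 in males, and the other 88 had between 4.67 and 57.8 CPM. The sum of 6 ovary markers in males had medians of 30.7 CPM in the on lines of yl and 0.694 CPM in its off lines. Without the 18 lines yl is 1 of the 16 members that do not meet the rule.

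**Figure D5:**
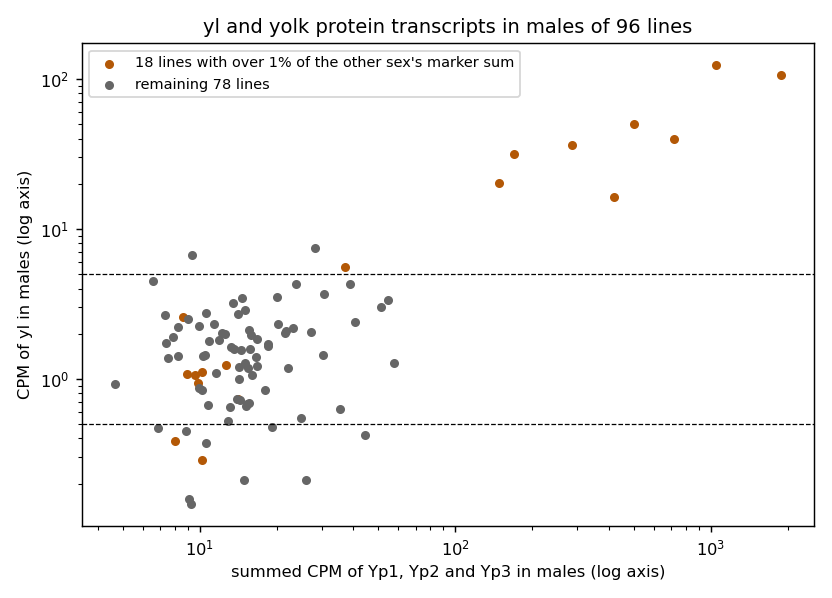
CPM of yl in males (vertical, log axis) against the summed CPM of Yp1, Yp2 and Yp3 in males (horizontal, log axis), 1 point per line, with dashed lines at 0.5 and 5 CPM. The 18 lines with over 1% of the other sex's marker sum (orange) include all 8 lines with yl over 10 CPM, and the other 78 lines (grey) stay at or under 7.43 CPM.

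A second gene with high female levels, fit (FBgn0038914, on 3R), is expressed in the fat body of females. In males it was on in 31 lines, at 5.11 to 29.4 CPM, and off in 12, at 0.146 to 0.456 CPM. Of its on lines, 5 were among the 18 lines and 26 were not, and the yolk protein sum had medians of 14.3 CPM in its on lines and 13.3 CPM in its off lines. Its highest line was DGRP_176, with 58.3 CPM in replicate 1 and 0.477 CPM in replicate 2. The yolk protein sum of these libraries was 3750 CPM and 24.6 CPM. In females fit had 38.5 to 417 CPM in the on lines and 0.308 to 77.7 CPM in the off lines, and the difference was 4.25 on the log2 scale (exact permutation, adjusted p = 0.000124).

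For each of 9 lists of tissue markers and each member, the median summed level of males was compared between on and off lines. The ratio of the median in on lines to that in off lines stayed between 0.86 and 1.23 for accessory gland, 0.86 and 1.19 for testis, 0.84 and 1.14 for eye and 0.83 and 1.07 for muscle, over all 69 members. It ranged between 0.83 and 1.32 for ejaculatory bulb, 0.75 and 1.48 for midgut and 0.69 and 2.29 for hemocyte markers. The widest ranges were those of yolk protein, 0.55 to 28.0, and ovary markers, 0.34 to 44.2, with both highest ratios in yl.

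The members were spread over the large chromosome arms, with 11 (15.9%) on 2L, 15 (21.7%) on 2R, 18 (26.1%) on 3L, 13 (18.8%) on 3R and 12 (17.4%) on X, and with 0 on 4 and on Y. They were set beside 10853 genes over 5 CPM in at least 10 male lines, without symbols starting asRNA:, lncRNA:, snoRNA: or Obp. Of these, 233 had no arm or class in the annotation and count in the total. Of the 10853 genes, 18.9% were on 2L, 19.8% on 2R, 18.8% on 3L, 24.2% on 3R, 15.4% on X, 0.719% on 4 and 0.0461% on Y. Of the members, 62 are annotated as protein coding, 6 as pseudogenes and 1 as a small nuclear RNA. Pseudogenes made up 8.70% of members and 0.286% of those 10853 genes. Members with only a CG or CR number for a name made up 68.1%, against 39.9% of those genes. The pseudogenes besides LysC and CR33319 were CR31562, CR40354, CR43086 and CR45499. CR31562 was on in 28 lines and off in 14, and females had 0.476 to 7.07 CPM in its on lines and 0 to 0.166 CPM in its off lines.

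Members made up 0.610% of the 11312 genes over 5 CPM in at least 10 male lines, and counts in small families are to be read against this share. By family, members were 1 of 76 cytochrome P450 genes among those genes, 3 of 60 serine proteases and serpins, 3 of 37 immune peptides and receptors, 1 of 29 cuticle proteins and chitinases, 1 of 12 lectins and 1 of 6 chemosensory receptors. Genes of seminal fluid proteins gave 0 of 55, those of testis and sperm 0 of 32, glutathione S-transferases 0 of 30, UDP-glycosyltransferases 0 of 26 and lipases and esterases 0 of 24. Families were matched by symbol only, so the 47 members with only a CG or CR number could not be counted in any family. SPH93 was not matched to the serine proteases either, so these counts can miss members of a family.

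Over 2346 pairs of members, the correlation of male log2 CPM across 96 lines was between -0.33 and 0.49, with a median of 0.02, as a description over lines that share libraries. Within 15 annotated genes of each other lay 7 pairs. The neighbours CG33666 and CG33665, which each overlap another gene on their own strand, were both on in 22 lines, both off in 8 and in opposite states in 21. CG33669 and CG33666, 6 genes apart, were in opposite states in 40 lines, of which CG33666 was the one on in 36. CG33669 and CG33665, 7 apart, were both on in 5, both off in 27 and opposite in 18. CR45499 and CG45154, also 7 apart, were both on in 1, both off in 16 and opposite in 4. Jon44E and PGRP-SC1b, 8 genes apart, were both on in 28 lines, both off in 1 and opposite in 18. Jon66Ci and Cpr66Cb were both on in 9, both off in 4 and opposite in 14, and CG12009 and CG12017 were both on in 1, both off in 4 and opposite in 9. Among these pairs the same state outnumbered opposite states in some and not in others. Such counts depend on how many lines each member was on or off in by itself, and they were not compared with that. Jon44E alone was on in 75 lines and PGRP-SC1b in 36, and the correlation of this pair was 0.04. Over the 7 pairs the correlation was between -0.30 (CG33669 and CG33666) and 0.27 (CR45499 and CG45154).

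At the edge of the rule, 8 members had exactly 10 lines in their rarer state, among them Mtkl (14 on, 10 off), Cpr66Cb (27 on, 10 off) and CG18179 (35 on, 10 off). A further 16 genes had 9 lines and were left out, among them CG18417 (77 on, 9 off), CG13946 (71 on, 9 off) and CG32523 (61 on, 9 off).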

How the data were processed

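RNA was sequenced from pools of whole flies of 96 DGRP lines in 384 libraries. Per the labels and the study's methods, the authors trimmed adapters with cutadapt 1.6, removed ribosomal, microbial and repeat reads with BWA 0.7.10, aligned the rest to BDGP5 with STAR 2.4.0e and counted reads with HTSeq. The authors deposited raw counts per gene model, not normalized and not pooled. Whether the counting used strand was not given in the sources used here. Summary rows that name no gene held 30.1% of the tallied alignments, of which reads matching several places made 25.8%, and entered neither totals nor tests. The 39823 rows flagged as usable were analysed, without 162 ribosomal and 35 mitochondrial ones. The annotation (BDGP6) gave symbols for 16734 of 17097 FlyBase genes, classes and neighbours only, and no position is given.

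CPM is a count scaled to a library total of 1000000. The members and lists were chosen with earlier results of these data known. Female libraries were tested with edgeR 4.0.16 (quasi-likelihood F-test of line, TMM, a mean of at least 5 counts, Benjamini-Hochberg adjustment, threshold 0.05) in R 4.3.3. For every feature tested, females of the 10 lines with the highest and the 10 with the lowest male CPM were compared in log2 CPM (prior count 2.0, mean of 2 replicates) by a two-sided exact permutation test over lines, with Benjamini-Hochberg adjustment over all features. Wolbachia status was not fitted. Both tests were tested on simulated data. Python 3.11.15, NumPy 2.4.6 and pandas 2.3.3 were used, and limma 3.58.1 and DESeq2 1.42.0 served alternatives. Members were named by fixed rules: the 20 named members with the highest male mean, the 8 with the most lines in the rarer of the on and off states, the 5 highest in their on lines, the 5 with the largest F in females, and the 5 with the largest and smallest female difference. Any other member named was chosen after its values were seen. Alternatives were other scalings, thresholds, filters, prior counts, sets of flow cells, pools, replicates, and the lines without markers of the other sex.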

Additional observations from a re-analysis of the deposited data

How the results depend on the processing

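The number of genes that met the rule was 69 with library totals, with TMM and with DESeq2's size factors, and 68 of them were shared. It was 45 with under 0.25 CPM as the lower threshold, 31 with over 10 CPM as the upper one, 122 with under 1 CPM, 159 with at least 5 lines, 22 with at least 20 lines, 53 without the 18 lines that hold markers of the other sex, and between 71 and 76 with 1 replicate left out, of which 61 (without replicate 1) and 60 (without replicate 2) were among the 69. The overlap with the female list was 25 genes, 16 without those 18 lines, and between 24 and 29 with 1 replicate left out. With a minimum mean of 50 counts, 24 members were tested, 24 passed the line test in females (87.9% of all features did) and 23 were higher in females of the lines highest in males (57.6% of all features were). In the other alternatives run, between 44 and 49 members passed the line test, beside 52.9% to 83.9% of all features. Between 41 and 44 were higher in that comparison, with 42 to 43 when 1 replicate was left out, beside 18.9% to 55.6% of all features. The replicate number coincides with the flow cell in 45 female lines, but the samples were not treated as paired. The main test fitted no term for replicate or flow cell. The deviations of 2 female lines were correlated above 0.1 in 33.0% of 4560 pairs of lines (median 0.04). Among those 45 lines they were correlated above 0.1 in 50.3% of the 990 pairs (median 0.10). Females of 78 of 96 lines correlated better, on average, with their own number than with the other. With a replicate block in limma-voom, 45 members and 83.7% of all features passed the line test, against 45 members and 77.2% without the block in limma-voom. The call of SPH93 was lost in both (adjusted p = 0.121 with the block, 0.0833 without) and with pool as a covariate (0.363). The line effect with 1 replicate has no residual degrees of freedom, and the fit without a filter on counts was not run. Among the named members, female differences changed sign only where they had not passed: CG12017 (0.0067 with pool means subtracted, 0.17 without the 18 lines), CG15239 (-0.13 in the lines outside flow cells A and B) and CG12009 (-0.18 in the lines of flow cells A and B, between -1.04 and 0.77 with 1 replicate left out). Depth sets the lower threshold: 0.5 CPM is between 3.24 and 8.70 counts in a male library.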
